A study of Oreochromis mossambicus with 12 samples.

Results

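The response to bacteria in the presence of nitrite was examined by setting leukocytes given both agents against leukocytes given nitrite alone. The cells were primary head-kidney leukocytes of the tilapia Oreochromis mossambicus, plated on collagen in medium with antibiotics and tilapia serum. The group called co-treatment here was exposed for 12 h to 1000 μM sodium nitrite and to Streptococcus agalactiae that had been killed by heat, added as 1 bacterium for each cell (MOI 1). The group called nitrite received 1000 μM sodium nitrite alone for 12 h, so nitrite was common to both groups and the groups differed in the bacteria. Of the 12 RNA-seq libraries of the series, 6 belong to this experiment, 3 in each group, and all were kept. The remaining 6 are 3 libraries with the bacteria alone and 3 with PBS, which were not in the main fit. All 12 libraries set the filter on low values, the median-ratio scaling and the quantile normalization. The remaining 6 also enter the fits said to use all 12 libraries, and the response without nitrite set beside this one. The libraries were chosen by their labels, and libraries of the same replicate number were paired, as co-treatment n minus nitrite n. Nothing in the labels ties the libraries to separate fish or cultures, so the p-values reflect the spread among these libraries and that spread may be technical.

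S. agalactiae is a Gram-positive pathogen of farmed tilapia. Killed bacteria cannot multiply, but their wall components and nucleic acids are still seen by pattern-recognition receptors, whose adaptors act through NF-kB and AP-1 transcription factors to switch on cytokine genes and also the inhibitors that later shut the signal down. Nitrite is a toxicant of intensive fish culture that oxidises haemoglobin. Bony fish make blood cells in the head kidney, whose leukocyte fraction can hold macrophages, granulocytes, lymphocytes, thrombocytes and their precursors.

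Values are FPKM (fragments per kilobase of transcript, scaled for library size), a level per transcript length, summed per gene symbol. Changes are log2 differences of FPKM + 1, a scale that shrinks the differences of weakly expressed genes. Their standard error (SE) is that of limma's fit to the 3 pairs, which draws each gene's spread toward that of genes at a similar level. It is therefore not the SE of a gene's own pairs. The SE of il-8 was 0.51 with pair differences of 9.72, 7.83 and 6.6. That of tlr5 was 0.14 with pair differences of -2.15, -2.25 and -2.3. Adjusted p-values come from limma's paired test with Benjamini-Hochberg adjustment over the 12423 genes whose mean reached 1 FPKM, at a threshold of 0.05, and only genes past it are said to have risen or fallen. Correlations of log2 values taken across genes (no independent replicates) were 0.948 to 0.971 between co-treatment libraries, 0.905 to 0.952 between nitrite libraries, and 0.780 to 0.883 between libraries of different groups. The FPKM sums ran from 471752 to 503740, and the approximate relative depth of the deepest library was 1.21 times that of the shallowest. Ribosomal protein genes took 9.52%, 11% and 13.2% of the FPKM sum in co-treatment replicates 1 to 3 and 16.1%, 16.1% and 17.2% in nitrite replicates 1 to 3. The myeloid transcription factor gene spi1 was abundant in every library, at 478, 429 and 379 FPKM in co-treated leukocytes, against 479, 467 and 514 FPKM with nitrite alone, while the T cell gene cd3e was at most 1.11 and 1.66 FPKM and the B cell gene cd79a at most 4.08 and 3.88 FPKM, in co-treatment and nitrite libraries in that order. These 3 genes were chosen after their values were seen.

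Adding the bacteria to nitrite moved a large part of the transcriptome. Of 12423 genes 6783 passed (54.6%), of which 1896 were higher with both agents (15.3% of genes tested) and 4887 lower (39.3%). The falls were many and mostly small. Apart from LOC100692258, a gene listed at 0 in all 3 co-treatment libraries and described last, the largest changes were rises. Changes of at least 1 on the log2 scale were found for 974 of the rises and 1836 of the falls, changes of at least 3 for 141 rises and 61 falls, and changes of at least 4 for 62 rises and 20 falls. Without regard to the test, 616 genes were at least 2-fold higher on this scale in every pair and 898 at least 2-fold lower in every pair, and 10 moved by more than 2-fold in opposite directions in different pairs. The libraries of the groups did not overlap for 54.5% of genes tested, with co-treatment above nitrite for 15.7% and below it for 38.8%. The log2 differences of the 3 pairs correlated across genes at 0.92 (pairs 1 and 2), 0.83 (pairs 1 and 3) and 0.85 (pairs 2 and 3).

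The balance between rises and falls depended on the scaling. The median log2 difference of the 12423 genes was -0.32 in the deposited values; median-ratio scaling brought it to -0.04 and quantile normalization to -0.05. The share of calls that were higher was 28.0% as deposited. With median-ratio scaling it was 50.5%, from 2879 rises (23.2% of genes tested) and 2822 falls (22.7%), 45.9% of genes in all. With quantile normalization it was 47.9%, from 2455 rises (19.8%) and 2672 falls (21.5%), 41.3% in all. Without the replicate block 4659 genes passed (37.5%), 1393 higher (11.2%) and 3266 lower (26.3%). Changes near -0.32 are therefore at the level of the typical gene in these files. A list is described below by how many of its members rose and fell, to be read against 15.3% and 39.3% of all genes, and its median against -0.32.

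Genes of inflammatory activation had the largest rises. acod1, which encodes the itaconate-producing enzyme of activated macrophages, was at 852, 441 and 593 FPKM in co-treated leukocytes, against 1.01, 0.65 and 2.95 FPKM with nitrite alone. The neutrophil chemokine gene il-8 was at 3297, 2305 and 1464 FPKM in co-treated leukocytes, against 2.91, 9.12 and 14.1 FPKM with nitrite alone. For both genes the lowest co-treatment library was far above the highest nitrite library. The log2 changes were 8.01 ± 0.27, adjusted p = 2.25e-05, for acod1 and 8.05 ± 0.51, adjusted p = 0.000107, for il-8. il12b, which encodes the subunit shared by IL-12 and IL-23, was at 26.9, 18.7 and 37.1 FPKM with both agents and 0.4, 0.14 and 0.54 FPKM with nitrite alone (log2 4.35 ± 0.17, adjusted p = 2.43e-05). ptx3, a soluble pattern-recognition protein that coats microbes, was at 74.8, 71.6 and 71.7 FPKM with both agents and 1.7, 2.19 and 1.12 FPKM with nitrite alone (log2 4.81 ± 0.16, adjusted p = 2.25e-05). Within co-treatment ptx3 differed little between replicates, while il-8 was highest in replicate 1 and lowest in replicate 3.

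**Figure D1:**
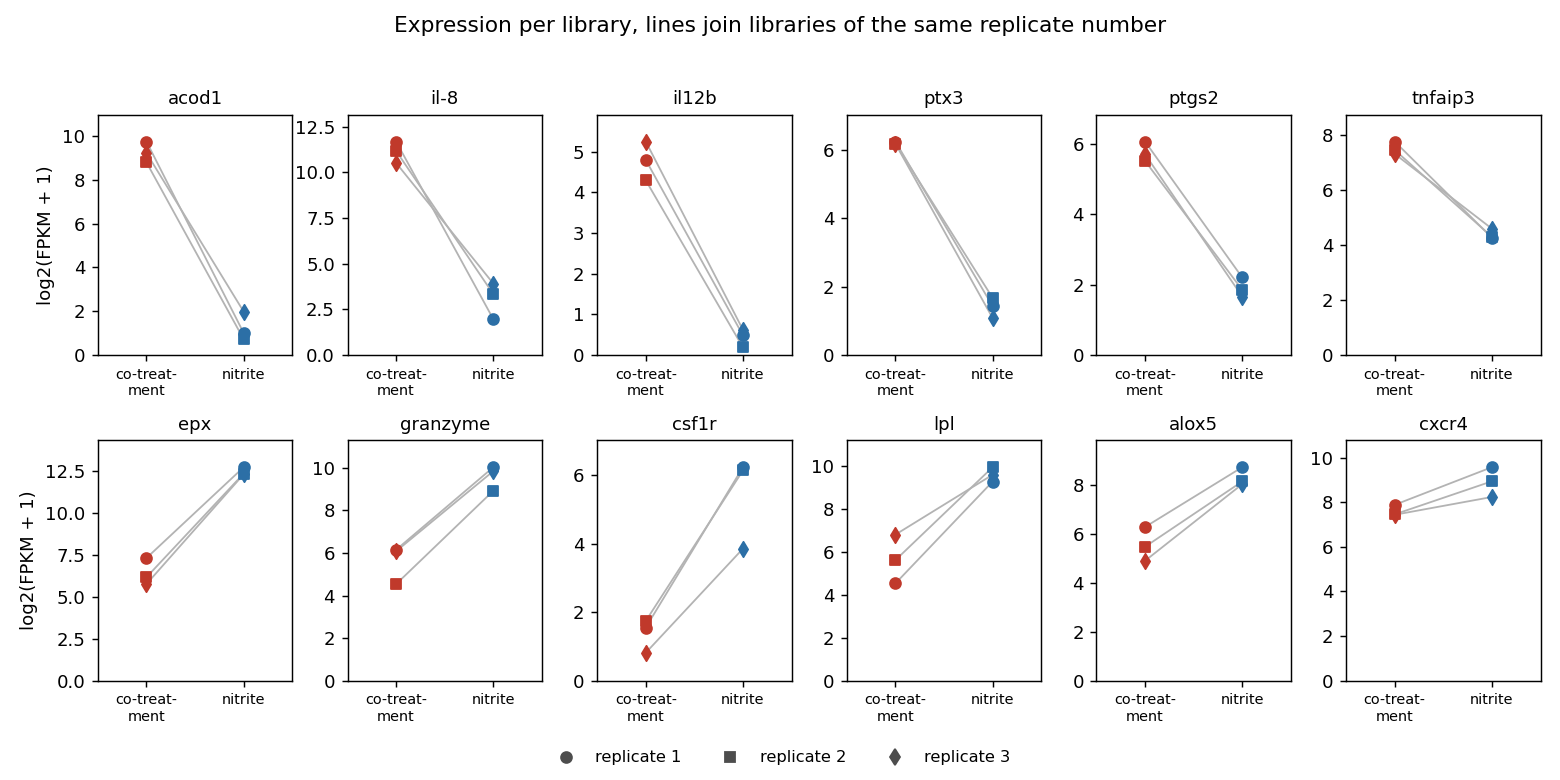
Expression of 6 genes that rose (upper row) and 6 that fell (lower row), as log2(FPKM + 1), in the 3 co-treatment libraries (left in each panel) and the 3 nitrite libraries (right), with lines between libraries of the same replicate number. In all 12 panels the groups do not overlap, which also holds for 54.5% of all genes tested. For acod1, il-8, il12b, ptx3, epx, granzyme, csf1r and lpl this was a condition of their choice among the largest changes. Among the 12 genes acod1 and il-8 have the largest changes, 8.01 and 8.05.

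The 15 named genes with the largest rises held further enzymes and transporters. tp53i3, a quinone oxidoreductase induced by p53 in mammals, was at 1622, 999.6 and 1176 FPKM with both agents and 11.2, 3.65 and 27 FPKM with nitrite alone (log2 6.73 ± 0.40). slco2a1, which carries prostaglandins across the membrane, was at 542, 419 and 436 FPKM with both agents and 0.63, 5.53 and 14.5 FPKM with nitrite alone (log2 6.40 ± 0.59). Its nitrite values were lowest in replicate 1 and highest in replicate 3. They stayed below the co-treatment range, which the choice of the 15 genes required. suox, the mitochondrial sulfite oxidase, was at 66.1, 53.2 and 76.5 FPKM with both agents and 0.16, 0.31 and 1.09 FPKM with nitrite alone (log2 5.48 ± 0.17). The immunometabolic enzyme gene lacc1 was at 106, 55.8 and 93.6 FPKM with both agents and 3.07, 2.11 and 0.96 FPKM with nitrite alone (log2 4.83 ± 0.26). The secreted protein gene crispld2 rose by 6.65 ± 0.22, the secreted axon-guidance gene draxin by 6.17 ± 0.16, the fatty acid binding protein gene fabp7 by 5.30 ± 0.28, kctd12 by 4.86 ± 0.26, abtb2 by 4.85 ± 0.26, echdc2 by 4.49 ± 0.15 and the vascular growth factor receptor gene flt1 by 4.39 ± 0.30. Of these, fabp7 and abtb2 were lowest in co-treatment replicate 1, at 23 and 30.3 FPKM, against at most 3.06 and 1.45 FPKM with nitrite alone. Adjusted p-values of the 15 genes lay between 1.61e-05 and 0.000373.

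Apart from LOC100692258, the deepest fall was in epx, a granule peroxidase gene of eosinophils in mammals, at 156, 70.4 and 52.9 FPKM in co-treated leukocytes, against 6661, 5124 and 4983 FPKM with nitrite alone (log2 -6.03 ± 0.24, adjusted p = 2.62e-05). Which granulocytes expressed epx in these cells was not tested. With nitrite alone it was the most abundant of the 15 named genes with the largest falls. granzyme, a protease of cytotoxic granules, was at 69.8, 22.2 and 66.7 FPKM with both agents and 1041, 483 and 916 FPKM with nitrite alone (log2 -4.01 ± 0.17, adjusted p = 3.69e-05). csf1r, the receptor through which macrophages receive their growth factor, was at 1.93, 2.35 and 0.76 FPKM with both agents and 74, 69.2 and 13.4 FPKM with nitrite alone (log2 -4.03 ± 0.31, adjusted p = 0.000198). Nitrite replicate 3 had less csf1r than the other nitrite libraries, and co-treatment replicate 3 likewise within its group, so that the pair differences were -4.68, -4.39 and -3.04. In bulk RNA fewer cells of a type and less RNA of a gene per cell cannot be told apart, which applies to every change described here and above all to genes that mark one cell type.

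Other named genes with the largest falls belonged to lipid handling and to cell adhesion. lpl, lipoprotein lipase, was at 22, 47.6 and 109.6 FPKM with both agents and 610.1, 970.2 and 761 FPKM with nitrite alone (log2 -3.95 ± 0.35). The apolipoprotein gene apoa4 was at 1.3, 2.0 and 0.52 FPKM with both agents and 93.3, 70.7 and 14.4 FPKM with nitrite alone (log2 -4.43 ± 0.35). The basement membrane genes tinagl1 (-4.57 ± 0.17) and hspg2, perlecan (-3.63 ± 0.37), fell, as did the laminin receptor subunit gene itga6 (-3.89 ± 0.43). entpd1, an ectoenzyme that breaks down extracellular ATP, was at 2.64, 5.87 and 1.99 FPKM with both agents and 105, 188 and 31.2 FPKM with nitrite alone (log2 -4.36 ± 0.29). selenop, the plasma selenium carrier, was at 48.2, 48.3 and 28.1 FPKM with both agents and 624, 643 and 246 FPKM with nitrite alone (log2 -3.49 ± 0.18). The remaining falls were in lrrc19 (-4.74 ± 0.41), rtn1 (-3.62 ± 0.33), aifm2, a suppressor of ferroptosis (-3.43 ± 0.27), ablim1 (-3.32 ± 0.20) and mtus1 (-3.32 ± 0.40). In all of the 15 but granzyme, lpl and ablim1, nitrite replicate 3 was the lowest nitrite library. Groups that did not overlap were a condition for a place among the 15, so their separation is no result.

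Sensors of microbes moved in both directions. Of 13 pattern-recognition receptor genes 4 rose and 5 fell, and the median log2 change was 0.10. Besides ptx3 the rises included nod2, an intracellular sensor of bacterial wall peptides, at 98.2, 52.6 and 85.5 FPKM with both agents and 24.8, 16.9 and 29.9 FPKM with nitrite alone (log2 1.67 ± 0.15, adjusted p = 0.000377), and pglyrp2, a peptidoglycan-degrading recognition protein (1.63 ± 0.23, adjusted p = 0.00189). tlr5, the flagellin receptor, was at 23.4, 11.9 and 4.33 FPKM with both agents and 108, 60.2 and 25.3 FPKM with nitrite alone (log2 -2.24 ± 0.14, adjusted p = 9.3e-05). Replicate 1 was highest and replicate 3 lowest in both groups, so that the groups came close without overlapping. The scavenger receptor gene marco was at 158, 145 and 114 FPKM with both agents and 302, 315 and 178 FPKM with nitrite alone (log2 -0.89 ± 0.16, adjusted p = 0.00445); without pair 2 it did not pass (adjusted p = 0.0628).

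Downstream adaptors and kinases rose more often than they fell. Of 20 genes 9 rose and 1 fell (median 0.35); with median-ratio scaling 13 were higher and 0 lower. card9, an adaptor of C-type lectin and NOD2 signalling, was at 542, 486 and 385 FPKM with both agents and 78.6, 60.7 and 122 FPKM with nitrite alone (log2 2.47 ± 0.27, adjusted p = 0.000681). myd88, the adaptor shared by most Toll-like receptors, was at 348, 311 and 276 FPKM with both agents and 85.3, 87.6 and 126 FPKM with nitrite alone (log2 1.65 ± 0.20, adjusted p = 0.00114). The kinase genes irak1, which acts behind MyD88, and ripk2, which acts behind NOD2, rose by 2.28 ± 0.18 and 1.92 ± 0.21. In these 4 genes the groups did not overlap, as for 54.5% of all genes tested.

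NF-kB genes rose together with the inhibitors of the pathway. Of 8 genes for NF-kB subunits and their kinases 5 rose and 0 fell (median 0.80): bcl3, a nuclear cofactor of NF-kB dimers, by 1.70 ± 0.23, rel by 1.04 ± 0.14, nfkb2 by 1.03 ± 0.15 and relb by 0.90 ± 0.14 were among them. Of 13 feedback inhibitor genes 8 rose and 1 fell (median 1.20). tnfaip3, which encodes the ubiquitin-editing inhibitor A20, was at 215, 174 and 158 FPKM with both agents and 18.2, 18.7 and 23.1 FPKM with nitrite alone (log2 3.12 ± 0.18, adjusted p = 7.9e-05). Its binding partners tnip2 and tnip1 were at 125, 93.2 and 106 and at 337, 257 and 324 FPKM with both agents, against 11.3, 9.83 and 16.3 and 71.7, 70.5 and 77 FPKM with nitrite alone (log2 3.03 ± 0.18 and 2.04 ± 0.15). nfkbia, the inhibitor that holds NF-kB in the cytoplasm, was at 108, 90.9 and 76.1 FPKM with both agents and 46.7, 36.7 and 34.5 FPKM with nitrite alone (log2 1.20 ± 0.14, adjusted p = 0.000847), and the related nfkbid rose by 2.14 ± 0.21. When all 12 libraries were fitted together with the block, nfkbia (adjusted p = 0.0946) and nfkb2 (adjusted p = 0.26) did not pass.

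Suppressors of cytokine signalling as a list moved much as all genes did. Of 12 genes 2 rose and 4 fell (median -0.33), near the 15.3% and 39.3% of all genes and their median of -0.32. The rises were socs1 and socs3, inhibitors of JAK kinases. socs1 was at 46.3, 43.3 and 142 FPKM with both agents and 8.11, 11.7 and 15.1 FPKM with nitrite alone (log2 2.45 ± 0.25, adjusted p = 0.00056), with co-treatment replicate 3 far above the other co-treatment libraries. socs3 was at 202, 198 and 243 FPKM with both agents and 14.3, 49.9 and 95.9 FPKM with nitrite alone (log2 2.34 ± 0.41, adjusted p = 0.00419), with nitrite values that spread widely. The receptor tyrosine kinase inhibitors spry2 (-1.33 ± 0.17) and spred1 (-1.14 ± 0.22) fell; for spry2 the highest transcript alone gave -0.28 (adjusted p = 0.339). After median-ratio scaling 3 of the 12 rose and 2 fell, and the median was -0.07, or 0.05 after quantile normalization.

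Among AP-1, EGR and related stress factors 6 of 15 rose and 6 fell (median 0.16), and without the block 4 rose and 4 fell. The rises were led by jund, an AP-1 subunit, at 52.7, 55.6 and 62.7 FPKM with both agents and 4.22, 6.37 and 5.48 FPKM with nitrite alone (log2 3.20 ± 0.15, adjusted p = 4.62e-05), the nuclear receptor gene nr4a3 (3.11 ± 0.38), fosl1 (2.90 ± 0.33) and batf (1.57 ± 0.16), a partner of JUN proteins. mafb, a factor of macrophage differentiation, fell (-1.15 ± 0.16, adjusted p = 0.00177). Of 15 MAP kinase and dual-specificity phosphatase genes 5 rose and 3 fell. The stress gene gadd45b was at 299, 408 and 289 FPKM with both agents and 29.9, 29.4 and 36.7 FPKM with nitrite alone (log2 3.32 ± 0.19, adjusted p = 7.23e-05). dusp16, a phosphatase of JNK and p38, rose by 1.98 ± 0.14, and the kinase gene mapkapk3 by 1.16 ± 0.23.

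Few cytokine genes carried a name in the files. Of 7 tested 3 rose and 4 fell (median -0.47); with median-ratio scaling 3 were higher and 1 lower. The rises were il12b, ebi3, the subunit shared by IL-27 and IL-35, at 34, 32.2 and 48.2 FPKM with both agents and 1.81, 2.68 and 1.75 FPKM with nitrite alone (log2 3.66 ± 0.21, adjusted p = 7.35e-05), and the anti-inflammatory cytokine il10. il10 stayed low, at 2.19, 3.21 and 2.32 FPKM with both agents and 0.52, 0.66 and 0.46 FPKM with nitrite alone (log2 1.20 ± 0.18, adjusted p = 0.00222). tnfsf13b, the B cell survival factor BAFF, was at 26.4, 22.2 and 22.1 FPKM with both agents and 63.9, 51.2 and 57.4 FPKM with nitrite alone (log2 -1.25 ± 0.14, adjusted p = 0.000688). The macrophage growth factor gene il34 was at 9.35, 6.48 and 11.2 FPKM with both agents and 16.1, 9.66 and 12.7 FPKM with nitrite alone (log2 -0.47 ± 0.16, adjusted p = 0.0452), and its groups overlapped. The call of il34 was lost without the block (adjusted p = 0.181), with median-ratio scaling (-0.17, adjusted p = 0.397) or quantile normalization (-0.22, adjusted p = 0.313), without pair 1 (adjusted p = 0.233) and without pair 2 (adjusted p = 0.189).

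Cytokine receptor genes also moved in both directions. Of 10 cytokine receptor genes 4 rose and 3 fell (median 0.25). il15ra, which presents the cytokine IL-15, was at 126, 88 and 161 FPKM with both agents and 10.2, 13.9 and 20.5 FPKM with nitrite alone (log2 3.00 ± 0.20, adjusted p = 0.000123), and tnfrsf1a, the main receptor of tumour necrosis factor, at 51.6, 71 and 62.6 FPKM with both agents and 36.7, 28.6 and 29.8 FPKM with nitrite alone (log2 0.94 ± 0.19, adjusted p = 0.00656; adjusted p = 0.0516 without pair 2). il1rap, the shared signalling chain of IL-1 family receptors, was at 5.79, 5.07 and 4.77 FPKM with both agents and 13, 13.6 and 12.8 FPKM with nitrite alone (log2 -1.19 ± 0.14, adjusted p = 0.00106). All 4 chemoattractant receptor genes tested fell (median -1.42). They were cxcr4, which holds precursors in the blood-forming niche, at 235, 174 and 172 FPKM with both agents and 757, 488 and 299.7 FPKM with nitrite alone (log2 -1.32 ± 0.21, adjusted p = 0.00269), cxcr5 (-1.58 ± 0.16, adjusted p = 0.000548), cmklr1 (-1.51 ± 0.41, adjusted p = 0.0201) and ccr7 (-0.66 ± 0.17, adjusted p = 0.018). cmklr1 was not called without pair 1 (adjusted p = 0.0692), without pair 2 (adjusted p = 0.0736) or with median-ratio scaling (adjusted p = 0.0524). ccr7 did not pass without the block (adjusted p = 0.169), after median-ratio scaling (adjusted p = 0.0691) or quantile normalization (-0.23, adjusted p = 0.318), or without pair 2 (adjusted p = 0.0748).

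Of 11 interferon response genes 7 rose and 0 fell (median 1.04). xaf1, an interferon-induced promoter of apoptosis, was at 21.4, 16.4 and 35.4 FPKM with both agents and 6.7, 6.67 and 7.97 FPKM with nitrite alone (log2 1.58 ± 0.19, adjusted p = 0.00102). ifi35 rose by 1.48 ± 0.15, its partner nmi by 1.25 ± 0.14, and irf7, a transcription factor of the interferon response, by 1.11 ± 0.16. irf8, a factor of the macrophage lineage, was at 85.5, 82.8 and 277 FPKM with both agents and 61.8, 68 and 52.8 FPKM with nitrite alone (log2 1.04 ± 0.39, adjusted p = 0.058), and did not pass, though it did after median-ratio scaling (adjusted p = 0.029) and without any one pair (adjusted p = 0.0365 to 0.0472; log2 0.37 without pair 3); co-treatment replicate 3 was far above the other co-treatment libraries. Of 10 antigen presentation genes 4 rose and 1 fell (median -0.21, or 0.06 after median-ratio scaling). The fall was in cd74 (-1.31 ± 0.29, adjusted p = 0.0097), and without pair 2 the list had 0 falls. ciita (-0.18), rfx5 (-0.39), rfxank (-0.25), rfxap (-0.35) and pdia3 (-0.46) did not pass. cd83, a marker of mature dendritic cells, was at 405, 419 and 461 FPKM with both agents and 26, 33.5 and 44.1 FPKM with nitrite alone (log2 3.62 ± 0.16, adjusted p = 4.13e-05), and tap1, which carries peptides into the endoplasmic reticulum, at 67.4, 65.4 and 114 FPKM with both agents and 19.7, 27.2 and 36.2 FPKM with nitrite alone (log2 1.53 ± 0.16, adjusted p = 0.000556).

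Proteasome genes rose by small amounts in large number. Of 38 tested 26 rose and 1 fell, with a median log2 change of 0.67. The activator subunits psme1 and psme2, which are induced by interferon gamma in mammals, were at 266, 334 and 373 and at 299.8, 378 and 491 FPKM with both agents, against 109, 146 and 214 and 133, 201 and 258 FPKM with nitrite alone (log2 1.09 ± 0.16 and 1.00 ± 0.15). The core subunit genes psmb1 and psma5 rose by 0.93 ± 0.17 (adjusted p = 0.0501 without pair 2) and 0.90 ± 0.17 (adjusted p = 0.0571 without the block). In all 4, replicate 1 was the lowest and replicate 3 the highest library of both groups, and each co-treatment library was above its own nitrite partner. The count depended on the pairing and on single pairs, with 6 rises without the block, 10 without pair 1, 3 without pair 2, 30 without pair 3 and 31 after median-ratio scaling.

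**Figure D2:**
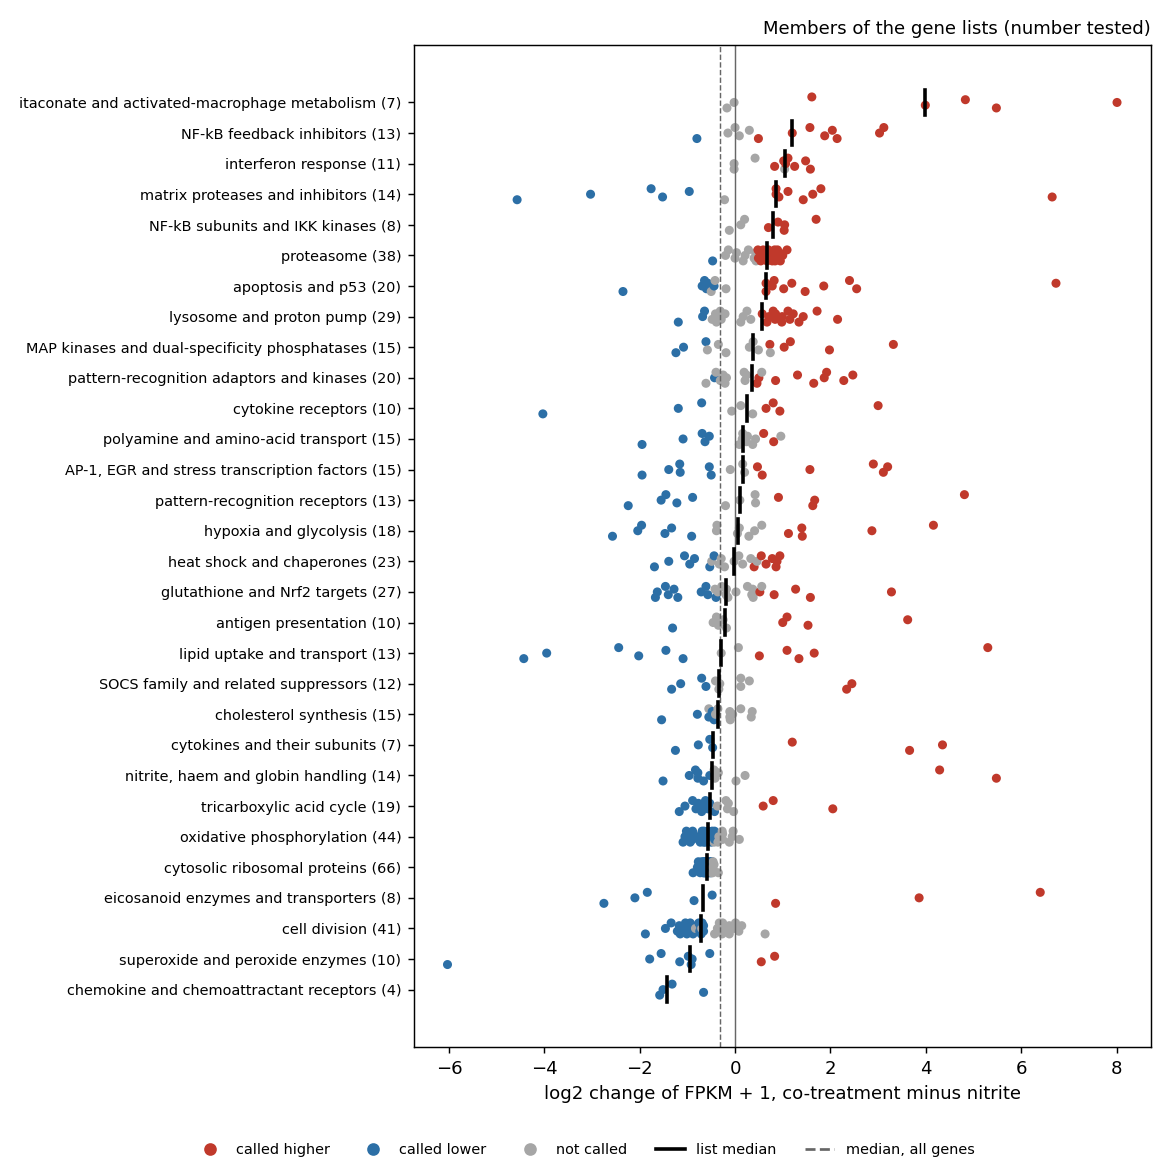
Log2 changes of FPKM + 1, co-treatment minus nitrite, of the tested members of each gene list with more than 1 tested member, cell type markers left out (points), coloured by call, with the list's median (black bar), 0 (solid line) and the median of all tested genes (dashed line). The itaconate list has the highest median, 3.99, and the chemoattractant receptors the lowest, -1.42. All 66 ribosomal protein genes lie below the dashed line, from -0.88 to -0.35, while oxidative phosphorylation genes run from -1.09 to 0.09.

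Eicosanoid genes were divided both between the prostaglandin and leukotriene branches and within the prostaglandin branch. All 8 tested passed, 3 higher and 5 lower. ptgs2, the inducible cyclooxygenase that commits arachidonic acid to prostaglandins, was at 66.4, 45 and 51.4 FPKM with both agents and 3.62, 2.62 and 2.17 FPKM with nitrite alone (log2 3.86 ± 0.15, adjusted p = 2.43e-05). ptges, a prostaglandin E synthase that acts after it, was at 4.1, 4.92 and 3.35 FPKM with both agents and 31.5, 19.2 and 15 FPKM with nitrite alone (log2 -2.10 ± 0.21, adjusted p = 0.000485). alox5, the enzyme that starts leukotriene synthesis, was at 76.7, 43.4 and 28.8 FPKM with both agents and 422, 281 and 261 FPKM with nitrite alone (log2 -2.75 ± 0.18, adjusted p = 0.000109). With the transporter slco2a1, the inducible cyclooxygenase and the carrier were thus higher with both agents while these synthases were lower.

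Superoxide and peroxide genes fell more often than they rose. Of 10 tested 8 fell and 2 rose (median -0.95). sod2, mitochondrial superoxide dismutase, was at 3.81, 7.88 and 9.33 FPKM with both agents and 19.3, 20.4 and 24.4 FPKM with nitrite alone (log2 -1.55 ± 0.20, adjusted p = 0.00131), and prdx5, a peroxiredoxin, at 32.4, 40.2 and 39.6 FPKM with both agents and 81.5, 79.3 and 93 FPKM with nitrite alone (log2 -1.16 ± 0.14, adjusted p = 0.00121). oxr1, an oxidation resistance gene, fell by 1.79 ± 0.17. ncf1, a cytosolic subunit of the phagocyte NADPH oxidase, was at 331, 275 and 340.2 FPKM with both agents and 150.2, 161 and 227 FPKM with nitrite alone (log2 0.83 ± 0.17, adjusted p = 0.00708; adjusted p = 0.0628 without pair 2). Of 27 glutathione and Nrf2 target genes 5 rose and 10 fell (median -0.19), shares near the 15.3% and 39.3% of all genes. With median-ratio scaling 10 were higher and 6 lower (median 0.12).

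The enzymes that make glutathione were among those rises. gss, glutathione synthetase, was at 511, 546 and 289 FPKM with both agents and 31.4, 38.5 and 68.4 FPKM with nitrite alone (log2 3.28 ± 0.36, adjusted p = 0.000724). gclm and gclc, the subunits of the rate-limiting ligase, were at 63.5, 83.5 and 68.8 and at 43.9, 85.5 and 57.7 FPKM with both agents, against 21.1, 31 and 37.4 and 23.6, 37.9 and 42.8 FPKM with nitrite alone (log2 1.27 ± 0.17 and 0.82 ± 0.18). gclc did not pass without the block (adjusted p = 0.0778) or without pair 2 (adjusted p = 0.0749). The autophagy receptor gene sqstm1 was at 993, 1209 and 916 FPKM with both agents and 329, 347 and 355 FPKM with nitrite alone (log2 1.58 ± 0.17, adjusted p = 0.000638; adjusted p = 0.0873 with all 12 libraries and the block). hmox1, the haem-degrading oxygenase, was at 344, 535 and 158 FPKM with both agents and 1138, 1070.1 and 775 FPKM with nitrite alone (log2 -1.67 ± 0.25, adjusted p = 0.00245), lowest in co-treatment replicate 3. gstk1 and the iron-sulfur cluster gene glrx5 fell by 1.46 ± 0.18 and 1.28 ± 0.15.

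Genes tied to nitrite, haem and iron had 2 rises and 7 falls among 14 (median -0.48), but 3 and 2 after median-ratio scaling, and 2 and 3 without the block. The rises were suox and steap4, a metalloreductase of inflamed tissue, at 56.6, 30.1 and 31.1 FPKM with both agents and 1.26, 0.35 and 1.53 FPKM with nitrite alone (log2 4.29 ± 0.22, adjusted p = 5.54e-05). The related steap3 fell by 0.78 ± 0.15 and mocs2, which builds the molybdenum cofactor that sulfite oxidase needs, by 0.78 ± 0.17. mocs2 did not pass without the block (adjusted p = 0.134), without pair 2 (adjusted p = 0.0581) or after quantile normalization (-0.36, adjusted p = 0.0925).

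The list of itaconate and activated-macrophage metabolism was drawn up with earlier results of these data known, so its counts are descriptive. Of 7 genes tested 5 rose and 0 fell (median 3.99), the same count in each of the 3 fits that left out a pair. Besides acod1, suox and lacc1 they included arg2, the mitochondrial arginase, at 490.2, 285 and 342 FPKM with both agents and 11.5, 17 and 52.4 FPKM with nitrite alone (log2 3.99 ± 0.43, adjusted p = 0.000688). In the hypoxia and glycolysis list 5 of 18 rose and 6 fell. pfkfb3, which drives glycolysis by making its main allosteric activator, was at 180.4, 105 and 289 FPKM with both agents and 3.01, 6.55 and 31.4 FPKM with nitrite alone (log2 4.16 ± 0.40, adjusted p = 0.000456). Its highest nitrite value, in replicate 3, was below its lowest co-treatment value. Other genes known to be induced by hypoxia went both ways. adm, the vasodilator peptide adrenomedullin, rose by 2.87 ± 0.38 (adjusted p = 0.00149), the vascular growth factor gene vegfa by 1.41 ± 0.22 (adjusted p = 0.00258) and the glycolytic enzyme gene hk1 by 1.40 ± 0.27 (adjusted p = 0.00594). In the other direction, ddit4, an inhibitor of mTORC1, was at 5.39, 4.96 and 2.95 FPKM with both agents and 49.6, 27.8 and 20.7 FPKM with nitrite alone (log2 -2.57 ± 0.18, adjusted p = 0.000144), bnip3, a mitophagy receptor, fell by 1.96 ± 0.16 and the oxygen sensor gene egln1 by 1.33 ± 0.15. The other falls of the list were in the glycolytic enzyme gene gapdh (-2.04 ± 0.37, adjusted p = 0.0047), pdk3 (-1.47 ± 0.18, adjusted p = 0.00107) and pdk1 (-0.91 ± 0.17, adjusted p = 0.00499). The remaining rise was in pkm (1.12 ± 0.20, adjusted p = 0.0041).

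Mitochondrial energy genes fell by small amounts. Of 44 oxidative phosphorylation genes 34 fell and 0 rose (median -0.57), against 15 falls without the block. The rescalings differed, with 10 falls after median-ratio scaling (median -0.26) and 30 after quantile normalization (median -0.62). ndufb5, a subunit of complex I, was at 21, 25.1 and 30.5 FPKM with both agents and 50.5, 45.7 and 66.5 FPKM with nitrite alone (log2 -1.05 ± 0.15, adjusted p = 0.00175). The complex I genes ndufa2 (-0.93 ± 0.14) and ndufa8 (-0.87 ± 0.13) and the ATP synthase gene atp5d (-1.02 ± 0.15) also fell. With all 12 libraries and the block, ndufa2 (adjusted p = 0.327) and atp5d (adjusted p = 0.306) did not pass. Of 19 genes of the tricarboxylic acid cycle 11 fell and 3 rose (median -0.53), or 5 and 3 after median-ratio scaling. sucla2, a subunit of succinyl-CoA ligase, was at 86.6, 79.5 and 126 FPKM with both agents and 18.8, 21 and 28 FPKM with nitrite alone (log2 2.05 ± 0.14, adjusted p = 0.00014), whereas dld, a subunit shared by several mitochondrial dehydrogenases, fell by 1.17 ± 0.19, mdh1 by 1.05 ± 0.18 and fh, fumarate hydratase, by 0.89 ± 0.15. mdh1 did not pass with all 12 libraries and the block (adjusted p = 0.118), nor fh without the block (adjusted p = 0.0934).

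Lipid genes were divided, with 5 of 13 higher and 6 lower (median -0.29, or 0.03 after median-ratio scaling). fabp7, which binds fatty acids in the cytosol, was listed at 23, 100.3 and 146 FPKM in co-treated leukocytes, against 0, 0.44 and 3.06 FPKM with nitrite alone. The related fabp3 was at 34.1, 36.4 and 36.9 FPKM with both agents and 181, 126 and 143 FPKM with nitrite alone (log2 -2.02 ± 0.17, adjusted p = 0.000258). Of 15 cholesterol synthesis genes 5 fell and 0 rose, with 1 fall and 1 rise after median-ratio scaling. The share of falls was near the 39.3% of all genes, and the median of -0.36 was near their -0.32. fdft1, squalene synthase, was at 1.79, 3.21 and 3.5 FPKM with both agents and 10.4, 10.1 and 9.18 FPKM with nitrite alone (log2 -1.54 ± 0.20, adjusted p = 0.00141). insig1 (-0.79 ± 0.18), idi1 (-0.48 ± 0.14) and pmvk (-0.55 ± 0.16) also fell in the main comparison. After median-ratio scaling their changes were -0.48, -0.18 and -0.27 (adjusted p = 0.0679, 0.325 and 0.167) in that order, and none of the 3 passed without pair 1 (adjusted p = 0.0539, 0.111 and 0.131) or without pair 2 (adjusted p = 0.0801, 0.101 and 0.0614). In the polyamine and amino-acid list 2 of 15 rose and 5 fell, against 7 and 2 after median-ratio scaling. As deposited these shares were near the 15.3% and 39.3% of all genes, while the list's median was 0.16. slc7a8, a carrier of neutral amino acids, was at 9.83, 12.7 and 8.11 FPKM with both agents and 67.4, 44.8 and 23.8 FPKM with nitrite alone (log2 -1.95 ± 0.24, adjusted p = 0.00114), and sms, spermine synthase, fell by 1.09 ± 0.20. sat1, which degrades polyamines, rose by 0.81 ± 0.19, and oaz1, an inhibitor of their synthesis, was at -0.54 ± 0.15. sat1 did not pass without pair 1 (adjusted p = 0.0597), without pair 2 (adjusted p = 0.0796) or after quantile normalization (0.50, adjusted p = 0.0568). oaz1 did not pass without the block (adjusted p = 0.084), without pair 1 (adjusted p = 0.111), without pair 2 (adjusted p = 0.136) or after median-ratio scaling (-0.21, adjusted p = 0.283).

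Lysosomal and proton pump genes rose more often than they fell. Of 29 tested 15 rose and 3 fell (median 0.57), and after median-ratio scaling 18 and 1. atp6v1a, the catalytic subunit of the vacuolar proton pump, was at 347, 347 and 355 FPKM with both agents and 63.4, 88.1 and 84.5 FPKM with nitrite alone (log2 2.15 ± 0.16, adjusted p = 0.00018). The other pump subunits atp6v1e1, atp6v1h and atp6v0b rose by 1.72 ± 0.16, 1.43 ± 0.15 and 1.22 ± 0.15. These 4 had the smallest adjusted p of the list, and their groups did not overlap, as for 54.5% of all genes tested.

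Among cell death genes 11 of 20 rose and 6 fell (median 0.65), but only 1 fell after median-ratio scaling and 1 without the block. After tp53i3 the rises with the smallest adjusted p were in the autophagy genes dram2 and dram1 and in bcl2l1, which encodes the survival factor Bcl-xL. dram2 was at 245, 231 and 257 FPKM with both agents and 32.6, 39.5 and 53 FPKM with nitrite alone (log2 2.55 ± 0.17, adjusted p = 0.000121). dram1 rose by 2.40 ± 0.16. bcl2l1 was at 40.6, 42.9 and 36.3 FPKM with both agents and 13.9, 12.5 and 15.1 FPKM with nitrite alone (log2 1.47 ± 0.15, adjusted p = 0.000606). Of 23 heat shock and chaperone genes 7 rose and 7 fell (median -0.02, or 0.30 after median-ratio scaling). The endoplasmic reticulum genes dnajb9, a cochaperone, and atf6, a sensor of unfolded protein, rose by 0.86 ± 0.14 and 0.78 ± 0.13, while the stress sensor gene ern1 and the cochaperone gene bag3 fell by 1.39 ± 0.16 and 1.69 ± 0.21. Matrix proteases and related genes had 8 rises and 5 falls among 14. mmp2, a gelatinase of stromal cells, was at 2.86, 3.39 and 4.06 FPKM with both agents and 32.1, 47.1 and 28.2 FPKM with nitrite alone (log2 -3.03 ± 0.20, adjusted p = 0.000123), while mmp9, the gelatinase of neutrophils, was at 276, 682 and 728 FPKM with both agents and 109, 190.1 and 332 FPKM with nitrite alone (log2 1.43 ± 0.19, adjusted p = 0.00136; adjusted p = 0.0637 without the block).

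Genes of protein synthesis and cell division were lower with both agents as deposited. Of 66 cytosolic ribosomal protein genes 57 fell and 0 rose, with a median of -0.59 and a range from -0.88 to -0.35; the median was -0.26 after median-ratio scaling, when 1 fell, and -0.33 after quantile normalization, when 10 fell. rps2, a protein of the small subunit, was at 852, 862 and 945 FPKM with both agents and 1972, 1486 and 1476 FPKM with nitrite alone (log2 -0.88 ± 0.19, adjusted p = 0.00862). The groups of rps2, rps9 (-0.73 ± 0.17), rps16 (-0.77 ± 0.17) and rpl37 (-0.66 ± 0.15) did not overlap, as for 54.5% of all genes tested. The number of falls in the list varied with the pair left out, at 1 without pair 1, 0 without pair 2 and 65 without pair 3. The medians were -0.50, -0.58 and -0.68 in that order. Over all genes the same fits called 4347, 4084 and 7411. None of rps2, rps9, rps16 and rpl37 passed without pair 2 (adjusted p = 0.116 to 0.179) or with all 12 libraries and the block (adjusted p = 0.264 to 0.515), and of the 4 rps2 alone passed without pair 1 and after median-ratio scaling. Of 41 cell division genes 23 fell and 0 rose (median -0.71), against 12 falls and 1 rise after median-ratio scaling and 7 falls without the block. cenpf, a kinetochore protein, was at 5.18, 6.89 and 6.68 FPKM with both agents and 17.3, 17.3 and 22.5 FPKM with nitrite alone (log2 -1.46 ± 0.15, adjusted p = 0.000584), and ccnb3, a mitotic cyclin, at 0.96, 3.56 and 3.38 FPKM with both agents and 10.7, 10.8 and 13.2 FPKM with nitrite alone (log2 -1.88 ± 0.24, adjusted p = 0.00133). plk1 (-1.34 ± 0.21) and cdc20 (-1.21 ± 0.19), which act in mitosis, did not pass without the block (adjusted p = 0.101 and 0.0626).

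Markers of several cell types moved with the bacteria, and their part in the changes above was not tested. Of 5 macrophage and monocyte markers tested 3 fell (csf1r, mafb and marco) and 0 rose. Sums of markers here and below are over every listed marker with a symbol in the data, tested or not. For macrophages and monocytes the sum was 726 to 818 FPKM over the co-treatment libraries and 845 to 1090.0 FPKM over the nitrite libraries. Of 4 neutrophil markers 3 rose and 0 fell, with sums of 740.0 to 1200.0 and 363 to 722 FPKM in co-treatment and nitrite. The rises were mmp9, ncf1 and mmp13, a collagenase, at 2.65, 9.32 and 6.34 FPKM with both agents and 0.13, 1.6 and 2.19 FPKM with nitrite alone (log2 1.63 ± 0.20, adjusted p = 0.00113). csf3r, the receptor that defines the neutrophil lineage, was at 129.9, 110.1 and 127 FPKM with both agents and 104, 124 and 161 FPKM with nitrite alone, and did not pass (-0.07 ± 0.17, adjusted p = 0.764). The 2 granule genes epx and granzyme summed to 92.6 to 226 FPKM with both agents and 5610.0 to 7700.0 FPKM with nitrite alone. Blood progenitor markers had 5 falls among 6 and summed to 73.9 to 113 and 223 to 335 FPKM. cebpa, a factor of granulocyte and monocyte precursors, was at 51.9, 79 and 58.5 FPKM with both agents and 255, 201 and 144 FPKM with nitrite alone (log2 -1.63 ± 0.22, adjusted p = 0.00165), and myb (-1.46 ± 0.15), hmga2 (-1.53 ± 0.18) and gfi1 (-1.16 ± 0.27) fell too; gfi1 had an adjusted p of 0.0755 after quantile normalization.

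Thrombocyte markers fell in 4 of 5 cases, with sums of 193 to 242 FPKM in co-treatment and 243 to 427 FPKM in nitrite libraries, and vwf was listed at 0 in all 6 libraries. itga2b and itgb3, the chains of the platelet fibrinogen receptor in mammals, were at 15.6, 26.2 and 17.9 and at 12.8, 23.6 and 12.7 FPKM with both agents, against 73.3, 88.5 and 34.5 and 65.5, 110.0 and 28.8 FPKM with nitrite alone (log2 -1.60 ± 0.24 and -1.85 ± 0.24), and gp1bb (-1.63 ± 0.20) and mpl, the thrombopoietin receptor (-1.58 ± 0.19), fell likewise. Of 11 B cell markers 3 fell and 1 rose, with sums of 179 to 217 and 288 to 331 FPKM. The falls were the kinase gene btk, at 22.9, 28.4 and 25.6 FPKM with both agents and 116, 101 and 85 FPKM with nitrite alone (log2 -1.93 ± 0.17, adjusted p = 0.000308), swap70 (-2.39 ± 0.20) and cxcr5, none of which is restricted to B cells in mammals. The rise was prdm1, a plasma cell and T cell factor (1.06 ± 0.26, adjusted p = 0.0139), which did not pass without the block (adjusted p = 0.0504) or without pair 2 (adjusted p = 0.0711). Among 7 T and NK cell markers 1 rose and 1 fell, with sums of only 11.6 to 20.8 and 13.8 to 18.7 FPKM. They were tcf7 (0.82 ± 0.17, adjusted p = 0.00848; adjusted p = 0.064 without pair 2, and 0.39 with adjusted p = 0.218 for the highest transcript alone) and cd247, the zeta chain of the T cell receptor (-0.55 ± 0.19, adjusted p = 0.0492). The call of cd247 held in 2 of 13 alternatives; its change was -0.28 with median-ratio scaling (adjusted p = 0.243) and -0.13 with quantile normalization (adjusted p = 0.592), and it was lost without the block (adjusted p = 0.114), without pair 1 (adjusted p = 0.195) and without pair 2 (adjusted p = 0.255). il7r (0.37 ± 0.19, adjusted p = 0.136) and tbx21 (0.23 ± 0.18, adjusted p = 0.317) did not pass; both did after quantile normalization (0.80, adjusted p = 0.0161, and 0.66, adjusted p = 0.0261), and il7r also after median-ratio scaling (0.58, adjusted p = 0.0398).

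Few stromal and vascular markers passed the filter on low values, 2 of 11 fibroblast and 4 of 11 endothelial markers with a symbol. The 2 fibroblast markers tested, pdgfrb (-2.55 ± 0.20, adjusted p = 0.00022) and tagln (-1.59 ± 0.17, adjusted p = 0.0007), fell. All 11 listed fibroblast markers with a symbol summed to 15.8 to 22.7 FPKM with both agents and 42.2 to 92.5 FPKM with nitrite alone. Of these 11, col1a1, lum and thy1 were listed at 0 in all 6 libraries. Of 4 endothelial markers 3 fell, stab1 (-2.93 ± 0.22, adjusted p = 0.000187), stab2 (-1.15 ± 0.18, adjusted p = 0.00252) and plvap (-0.93 ± 0.26, adjusted p = 0.0206), and flt1 rose to 44, 28.9 and 83.3 FPKM with both agents, against 0.09, 1.17 and 4.19 FPKM with nitrite alone. The call of plvap was lost without pair 1 (adjusted p = 0.0825), without pair 2 (adjusted p = 0.109) and with quantile normalization (adjusted p = 0.135). The erythroid marker rhag was at 2.48, 1.89 and 1.29 FPKM with both agents and 11.7, 15.3 and 6.77 FPKM with nitrite alone (log2 -2.04 ± 0.19, adjusted p = 0.000407), and nfe2 did not pass (-0.48 ± 0.20, adjusted p = 0.0799), though it did without pair 3 (adjusted p = 0.0286). Of the interrenal and kidney tubule markers only star was tested (-0.83 ± 0.37, adjusted p = 0.0989; adjusted p = 0.00997 without pair 3), and cdh17, mc2r, pax2 and slc12a1 were listed at 0 in all 6 libraries.

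**Figure D3:**
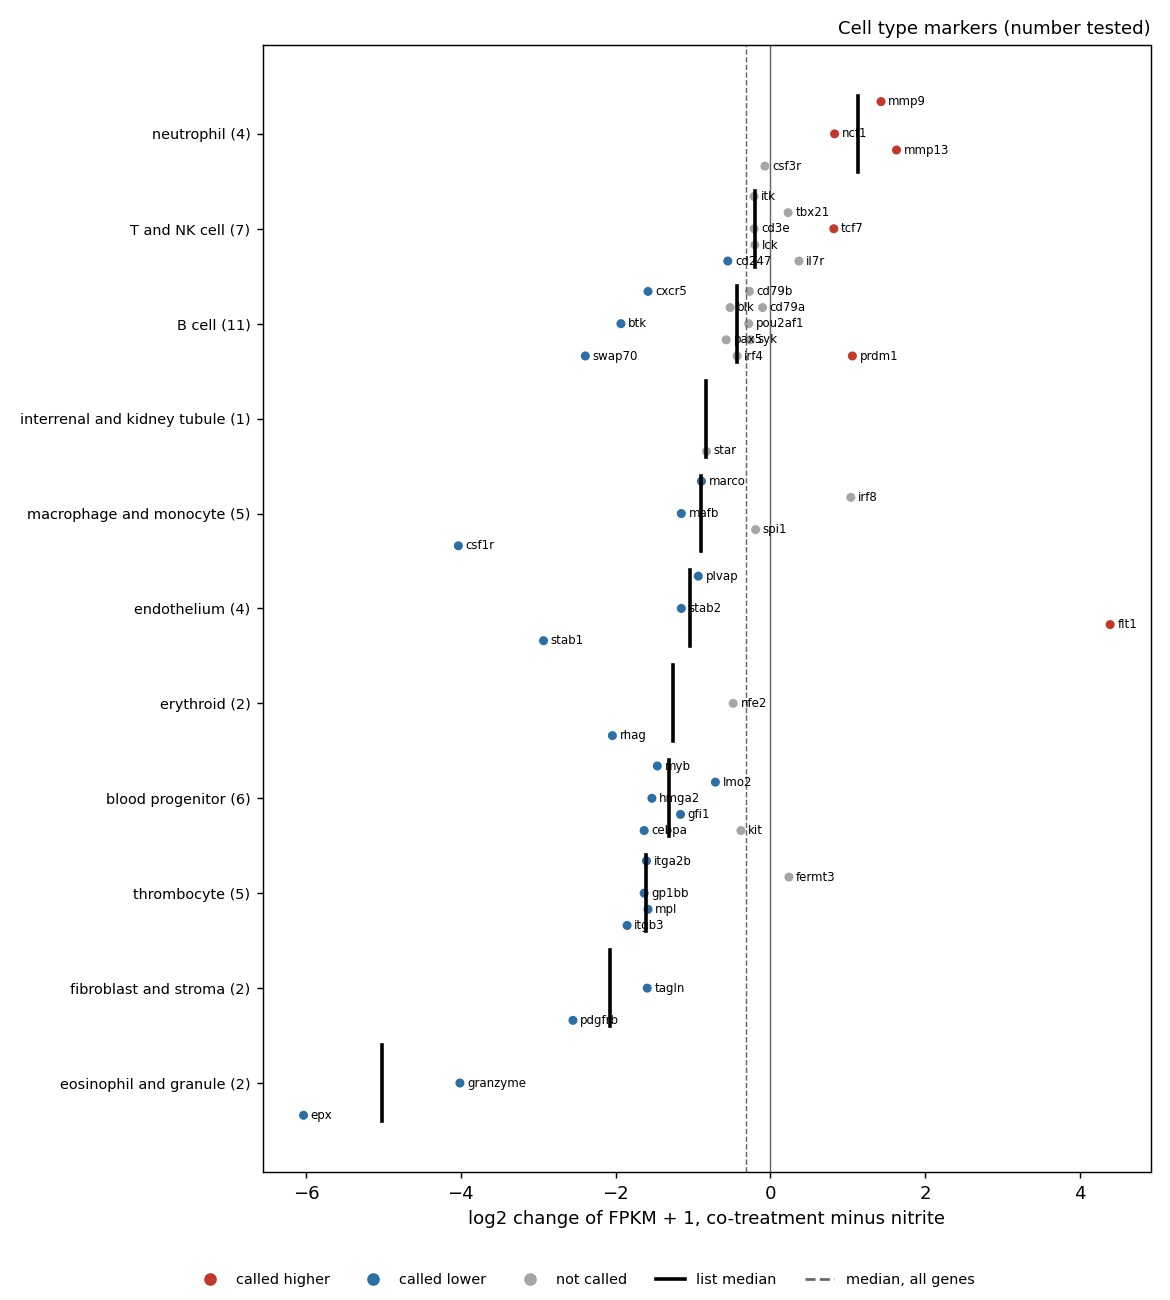
Log2 changes of FPKM + 1, co-treatment minus nitrite, of the tested markers of each cell type, labelled and coloured by call, with the list's median (black bar), 0 (solid line) and the median of all tested genes (dashed line). epx (-6.03), granzyme (-4.01) and csf1r (-4.03) lie farthest to the left, and flt1 (4.39) farthest to the right.

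The same response without nitrite can be read from the 3 libraries with bacteria alone and the 3 with PBS, none of which entered the main fit above. That fit, also paired by replicate number, called 3723 genes (30.0%), 1134 higher (9.13%) and 2589 lower (20.8%). Of these 3611 were also called with nitrite present, which is 97.0% of the calls without nitrite and 53.2% of the calls with nitrite, and all 3611 had the same sign in both. Across genes the log2 changes with and without nitrite correlated at 0.939, leaving out the gene listed at 0 described last; the 4 groups share replicate numbers, and genes are not independent. PBS replicate 1 stood apart from the other libraries, with ribosomal protein genes at 4.98% of its FPKM sum. Without replicate 1 the fit of bacteria against PBS called 6008 genes (48.4%), 1750 higher (14.1%) and 4258 lower (34.3%), of which 5457 were also called with nitrite present, 5455 with the same sign and 2 with the opposite sign.

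The changes of the leading genes are given side by side. On the log2 scale acod1 changed by 8.01 ± 0.27 with nitrite and 9.07 ± 0.34 without it, il-8 by 8.05 ± 0.51 and 8.28 ± 0.68, il12b by 4.35 ± 0.17 and 4.81 ± 0.22, epx by -6.03 ± 0.24 and -5.58 ± 0.38, and csf1r by -4.03 ± 0.31 and -3.79 ± 0.26. Redox and nitrite-related genes behaved likewise, with suox at 5.48 ± 0.17 with nitrite and 5.84 ± 0.25 without it, steap4 at 4.29 ± 0.22 and 4.88 ± 0.28, gclm at 1.27 ± 0.17 and 0.96 ± 0.19, and hmox1 at -1.67 ± 0.25 and -1.72 ± 0.26. prdm1 changed by 1.06 ± 0.26 with nitrite and 0.03 ± 0.29 without it, or -0.25 without replicate 1 (interaction 1.03 ± 0.41, adjusted p = 0.963). Some genes had estimates further apart with all pairs than without replicate 1. nfkbia changed by 1.20 ± 0.14 with nitrite and 2.63 ± 0.58 without it, or 1.71 without replicate 1, and nfkb2 by 1.03 ± 0.15 and 2.53 ± 0.77, or 1.26. sqstm1 changed by 1.58 ± 0.17 and 2.50 ± 0.77, or 1.25, and rps2 by -0.88 ± 0.19 and 1.06 ± 1.1, or -0.75. The median of the 66 ribosomal protein genes was -0.59 with nitrite, 0.18 without it and -0.58 without it after leaving out replicate 1, and that of the 44 oxidative phosphorylation genes -0.57, -0.24 and -0.52.

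**Figure D4:**
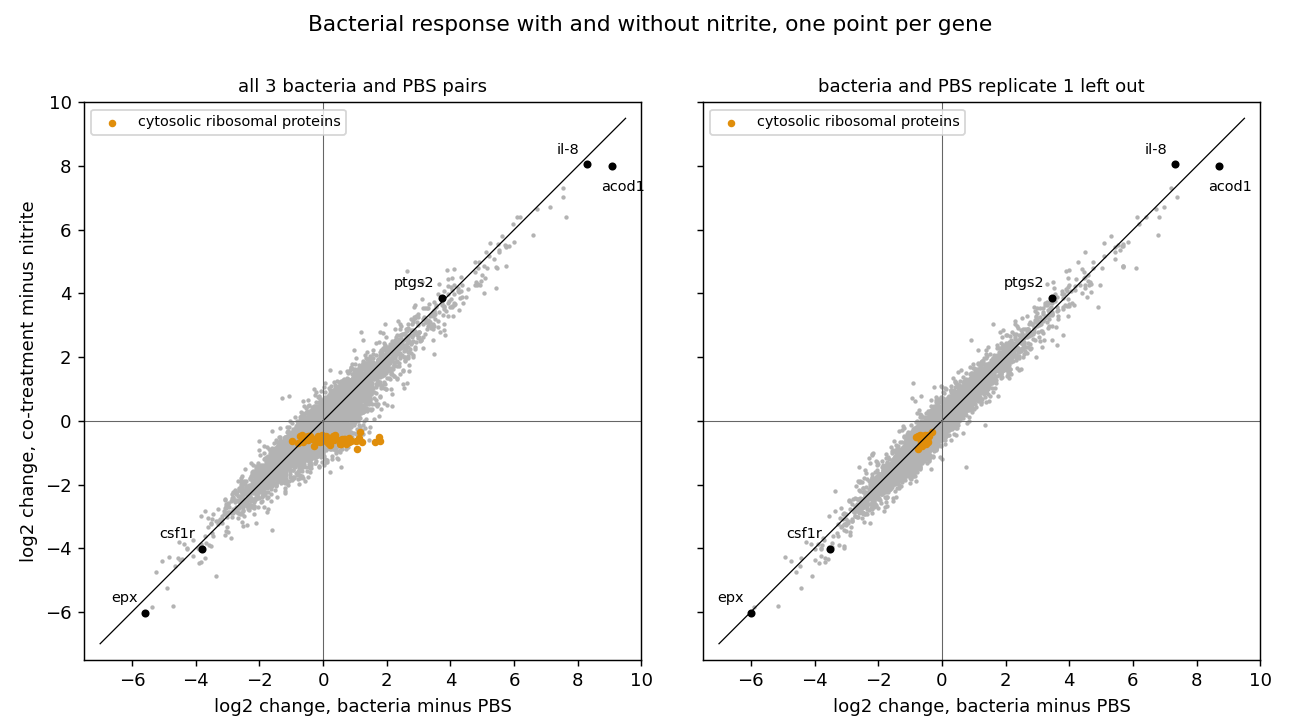
Log2 changes of FPKM + 1 of each tested gene, co-treatment minus nitrite (vertical) against bacteria minus PBS (horizontal), with the line of equality, cytosolic ribosomal protein genes in orange and 5 named genes in black; the right panel leaves out replicate 1 of bacteria and PBS, and LOC100692258 is not drawn. Ribosomal protein genes spread from side to side in the left panel and lie near the line in the right panel, where their median is -0.58 without nitrite and -0.59 with it.

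Whether the bacterial response differed with nitrite present was tested directly as an interaction over all 12 libraries. Limma called 1 of 12423 genes, lower with nitrite present (0.00805%), and 0 higher (0.0%). An unadjusted p under 0.05 was found for 192, or for 50 without the block, when the count of calls was also 1. Both 192 and 50 are below a 0.05 share of the genes tested, the share that exact p-values would give if no gene differed. With fewer than that share, the counts are no sign of further differences and no sign of their absence. For acod1 the interaction was -1.06 ± 0.48, for il-8 -0.23 ± 0.95, for epx -0.46 ± 0.47, for gclm 0.31 ± 0.21 and for nfkbia -1.43 ± 0.78, none of which passed (adjusted p = 0.963 or higher). These calls are few at the spread of these libraries, and a p that misses the threshold does not show that the responses were equal. The gene called was LOC100692258, which the files do not pair with a name. It was listed at 0 in all 3 co-treatment libraries, against 10335, 9187 and 9558 FPKM in the nitrite libraries, 17476, 20799 and 18949.5 FPKM in the bacteria libraries and 9527, 7295 and 8120.2 FPKM in the PBS libraries. It was the only gene at 0 in all 3 co-treatment libraries and above 1 FPKM in all 9 others. An exact 0 in a table without counts can be a failed estimate, so no fold change is given.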

How the data were processed

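RNA of head-kidney leukocytes was sequenced in 12 libraries, in 4 groups of 3. Per the labels' protocols RNA was extracted with Trizol and made into Illumina TruSeq libraries. The authors deposited 1 table of FPKM values to 2 decimals, with 58070 transcripts and 28921 gene symbols, of which 18784 (64.9%) are LOC identifiers without a name. The submitters' processing notes list Trimmomatic 0.30, HISAT2 2.0.1 and HTSeq 0.6.1. Not given in the sources used here are the genome build, annotation and FPKM software. FPKM hold no counts, so absolute depth is unknown. Steps of low values in 3483 genes gave relative depths.

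Values of transcripts sharing a symbol were added up, and the 12423 genes averaging 1 FPKM or more over 12 libraries were kept. log2(FPKM + 1) of the 6 libraries was fitted in R 4.3.3 using limma 3.58.1 (trended empirical Bayes, replicate number as a block, 2 residual and 4.75 prior degrees of freedom), adjusted by Benjamini-Hochberg at 0.05. Bacteria against PBS used the same model on 6 libraries and the interaction all 12. The model was also run on simulated data in which few genes changed. Many genes passed here, so that run says little about the calls in these data. The comparison was defined with the titles' numbers as pairs. Same-numbered libraries deviated together from their group means (r = 0.65, 0.57 and 0.54 across genes, different numbers -0.46 to -0.06). Deviations within a group sum to 0, so positive values for same numbers push those for different numbers below 0. These correlations come from the values then tested and are no independent support for the pairing.

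Members, 42 gene lists (symbols only) and alternatives were chosen with earlier results of these data known. Named genes are the 15 largest rises and 15 largest falls that passed, kept their sign in all 3 pairs, did not overlap between groups and averaged at least 5 FPKM in the higher group, LOC identifiers left out; up to 4 members per list with the smallest adjusted p; a panel of 24; and up to 5 genes of the interaction. Other alternatives were pseudocounts of 0.1 and 3, other filters, scalings, fits, the highest transcript per gene, and leaving out each pair.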

Additional observations from a re-analysis of the deposited data

Results flagged for a closer look

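LOC100692258 was flagged because the change with bacteria differed between cells with and without nitrite by a direct test: the interaction had an adjusted p of 6.32e-09 in limma's fit over 12 libraries. It was listed at 0 in all 3 co-treatment libraries, against 10335, 9187 and 9558 FPKM in the nitrite libraries, and at 17476, 20799 and 18949.5 FPKM in the bacteria libraries, against 9527, 7295 and 8120.2 FPKM in the PBS libraries. The zeros can be failed estimates, and whether the transcript was absent was not tested.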

How the results depend on the processing

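Absolute depth is unknown, exact zeros can be failed estimates, and 3 pairs leave 2 residual degrees of freedom, so calls lean on the spread shared across genes. Most genes below 1 FPKM were not tested, and LOC identifiers could not be named.

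Of 161 named genes that passed, 109 kept their call in each of the 14 alternatives that tested them. Calls were lost for 42 without the filter on low values, 24 with all 12 libraries and no block, 22 without pair 2, 14 without the block, 13 with all 12 libraries and the block, 12 without pair 1, 11 after median-ratio scaling, 10 after quantile normalization, 4 with the highest transcript, 1 with a pseudocount of 3, 1 with robust empirical Bayes and 0 in the other 3. The call of csf3r was absent throughout, but its change of -0.07 was 0.34 with the highest transcript, 0.26 after median-ratio scaling and -0.26 to 0.07 when single pairs were left out, above 0 without pair 3.

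The count of 6783 genes (4887 lower, 1896 higher) was 4659 without the replicate block (no paired term), 4206 with all 12 libraries and no block (2892 lower), and 3044 without the filter (1045 higher, 1999 lower; 23678 genes tested). Falls numbered 2822 after median-ratio scaling (2879 rises), 2672 after quantile normalization and 2940 with a minimum mean of 5 FPKM (8263 genes tested). Leaving out pairs gave 4084 to 7411 calls, 1238 to 2295 higher and 2846 to 5116 lower, lowest without pair 2 and highest without pair 3. List members called numbered 404, against 264 without the block, 206 with all 12 libraries and no block, 172 without the filter, and 232 to 445 when pairs were left out. For bacteria minus PBS, 1370 genes were lower after median-ratio scaling, and leaving out pairs gave 1132 to 6008 calls, 486 to 1750 higher and 646 to 4258 lower, highest without replicate 1 and lowest without replicate 2. The interaction called 1 gene after median-ratio scaling, without the block and without each replicate number, the 5 alternatives run for it. The cause of these shifts was not tested. The genes named in the text whose calls were lost without the filter (adjusted p from 0.05 to 0.175) were bcl3, ccnb3, ccr7, cd247, cdc20, cebpa, cmklr1, cxcr4, dld, fosl1, gclc, gfi1, hmox1, idi1, il34, insig1, itga2b, itgb3, mapkapk3, mdh1, mocs2, mtus1, ncf1, nr4a3, oaz1, plk1, plvap, pmvk, prdm1, psma5, psmb1, rpl37, rps16, rps2, rps9, sat1, sms, socs3, spred1, steap3, tcf7 and tnfrsf1a.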

Other observations

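Gene families picked by the start of their symbol, after their values had been seen, also held changes between co-treatment and nitrite. Some of their members, such as itga2b, itgb3 and itga6, are described above, and not every family looked at is given. Of 11 genes with integrin symbols, whose proteins anchor cells to matrix and to each other, 8 fell and 0 rose (median log2 change -1.60), and after median-ratio scaling 7 fell and 2 rose. itgav, the chain that binds vitronectin, was at 3.51, 5.52 and 4.54 FPKM with both agents and 19.3, 17.2 and 11.8 FPKM with nitrite alone (log2 -1.62 ± 0.21, adjusted p = 0.00135), and itga1, a collagen receptor chain, at 2.05, 3.55 and 1.85 FPKM with both agents and 17.4, 23.3 and 7.4 FPKM with nitrite alone (log2 -2.19 ± 0.22, adjusted p = 0.000556). Of 70 mitochondrial ribosomal protein genes 44 fell and 0 rose (median -0.60), 16 fell and 1 rose after median-ratio scaling, and 6 fell without the block. Of 15 genes with kinesin symbols, motors of the microtubule network, 9 fell and 0 rose (median -0.65), and 6 fell after median-ratio scaling. Of 39 genes with symbols of translation initiation factors 17 fell and 1 rose (median -0.39), a share of falls near the 39.3% of all genes, and 5 fell and 2 rose after median-ratio scaling. The rise as deposited was eif4g2, which supports cap-independent initiation, at 136, 175 and 154 FPKM with both agents and 47, 65 and 94.8 FPKM with nitrite alone (log2 1.21 ± 0.20, adjusted p = 0.00307).

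Among 93 solute carrier genes 23 rose and 31 fell (median 0.02), and 36 rose and 16 fell after median-ratio scaling. Of carriers of metal ions, 3 that rose and 1 that fell are given. slc31a1, the copper importer, was at 70.6, 63.5 and 66.2 FPKM with both agents and 15.5, 15.3 and 19.4 FPKM with nitrite alone (log2 1.94 ± 0.15, adjusted p = 0.000197). slc39a3, a zinc importer, was at 35.4, 24.8 and 23.4 FPKM with both agents and 7.79, 5.45 and 8.69 FPKM with nitrite alone (log2 1.79 ± 0.18, adjusted p = 0.000563), and slc30a1, which exports zinc, at 47.3, 67.5 and 46.5 FPKM with both agents and 12.3, 16.1 and 20.6 FPKM with nitrite alone (log2 1.66 ± 0.20, adjusted p = 0.000996). The groups of these 3 genes did not overlap, as for 54.5% of all genes tested. slc40a1, the iron exporter, was at 2.99, 5.14 and 4.21 FPKM with both agents and 38.1, 12.6 and 4.55 FPKM with nitrite alone (log2 -1.51 ± 0.53, adjusted p = 0.0481), with overlapping groups. The largest rise of the family was in the mitochondrial carrier slc25a35, at 203, 154 and 222 FPKM with both agents and 10.2, 7.92 and 12.8 FPKM with nitrite alone (log2 4.10 ± 0.14, adjusted p = 2.25e-05), and the deepest fall in slc52a3, a riboflavin carrier, at 0.36, 0.69 and 0.45 FPKM with both agents and 10.7, 13.1 and 7.1 FPKM with nitrite alone (log2 -2.88 ± 0.19, adjusted p = 0.00012). lepa, a leptin gene, was at 28.3, 40.5 and 40.1 FPKM with both agents and 0.68, 0.77 and 1.62 FPKM with nitrite alone (log2 4.21 ± 0.17, adjusted p = 2.68e-05), and f3, the tissue factor that starts coagulation, at 10.8, 13.7 and 22.4 FPKM with both agents and 1.36, 3.49 and 2.7 FPKM with nitrite alone (log2 2.23 ± 0.21, adjusted p = 0.000391). The genes of this paragraph were chosen after their values were seen.

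Some of the largest changes were in genes that the files do not name. LOC100703315 was at 1024, 874 and 835 FPKM with both agents and 1.33, 1.83 and 27.9 FPKM with nitrite alone (log2 7.30 ± 0.68, adjusted p = 0.000409), and LOC100695399 at 272, 144 and 376 FPKM with both agents and 0.62, 0.35 and 2.0 FPKM with nitrite alone (log2 7.04 ± 0.17, adjusted p = 1.36e-05). LOC100703283 was at 19, 3.41 and 1.8 FPKM with both agents and 577, 419 and 190.0 FPKM with nitrite alone (log2 -5.84 ± 0.31, adjusted p = 6.01e-05). Nitrite replicate 3 held the highest nitrite value of the 2 genes that rose and the lowest of the gene that fell.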
